A study of Hydra vulgaris with 113 samples.

Results

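Foot-regenerating tips of the freshwater polyp Hydra vulgaris, kept in the Wnt pathway inhibitor iCRT14, were followed over the first 8 h after amputation. All libraries labelled as iCRT14 foot regenerates at 8 h or at 0 h were taken, which gave 14 of the 113 libraries of the series, with 6 from RNA-seq and 8 from ATAC-seq. Polyps of strain 105 were cut through the body column, and the end of the piece that remakes a foot was collected. The 8 h tips had spent 10 h in 5 µM iCRT14, counting 2 h before the cut, and the 0 h tips had spent 2 h in it. RNA-seq had 3 libraries per time from 30 pooled tips each, and ATAC-seq had 4 libraries per time from 15 pooled tips each. Foot tips without the inhibitor, and head tips in the same inhibitor, were used for comparison, each at 8 h and at 0 h. The untreated foot had 5 ATAC-seq libraries per time, the iCRT14 head had 5 at 8 h and 4 at 0 h, and both had 3 RNA-seq libraries per time. No vehicle group is named in the labels, and longer time after the cut goes together with longer time in the inhibitor, so that the effects of time and of exposure cannot be told apart.

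In canonical Wnt signalling, β-catenin enters the nucleus and binds TCF/LEF proteins, which turns on their target genes. In Hydra this pathway runs the head organizer at the oral end and comes on early after a cut. iCRT14 blocks the contact between β-catenin and TCF. ATAC-seq cuts open chromatin with a transposase, so that a peak marks accessible DNA. A motif deviation score sums the accessibility of all peaks that hold a given motif in 1 library, and a higher score is read as more open peaks with that motif relative to the other libraries.

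The replicates are separate libraries of pooled tips, and nothing in the labels says that they came from separate cultures, so that p-values measure the spread between libraries. RNA-seq totals averaged 23.4 ± 2.66 M counts at 8 h and 19.2 ± 1.45 M at 0 h (SD, n = 3 each; exact permutation test, two-sided, p = 0.2, where the smallest possible p is 0.1). ATAC-seq totals in peaks were lower at 8 h, with 8.61 ± 2.01 M counts, than at 0 h, with 15.5 ± 2.95 M (SD, n = 4 each; exact permutation test, two-sided, p = 0.0286, the smallest this design can give). A single RNA library stood apart. Replicate 3 of the 8 h iCRT14 foot correlated at 0.954 to 0.955 with the 0 h libraries and at 0.949 and 0.952 with its own replicates (log2 CPM over 19989 gene models), while the other 8 h libraries correlated at 0.925 to 0.931 with the 0 h libraries. The counts, sizes and overlaps of called gene models are therefore given with and without it. In ATAC-seq, replicate 2 of the 8 h iCRT14 foot correlated at 0.931 to 0.939 with the 0 h libraries. With replicates 1, 3 and 4 of its own time it correlated at 0.947, 0.916 and 0.915 (log2 CPM over 108934 peaks). The 8 h totals were 10.5 and 10.2 M counts in replicates 1 and 2, and 6.86 and 6.88 M in replicates 3 and 4. Without replicate 2 at 8 h, 17102 peaks were called, against 15612 with it. The labelled tissue could not be checked against marker genes, since 0 of the gene model IDs matched the gene table used here, and the motifs carry the only gene names in the files.

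Accessibility at transcription factor motifs changed widely between 8 h and 0 h in the inhibitor. Of 332 motifs, 205 changed (61.7%; limma, adjusted p below 0.05, Benjamini-Hochberg over all motifs), with 113 higher at 8 h (34%) and 92 lower (27.7%). With so many motifs called, a list is read against these shares. The largest rises were at a composite forkhead and E-box motif and at motifs of ETS, Egr, Krüppel-like and Max proteins, and the largest falls were at motifs of goosecoid-type homeodomain, Smad and GATA proteins. Motifs of one family resemble each other and share peaks, so that they are not independent.

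The TCF/LEF motifs, whose factors are the proteins that iCRT14 keeps apart from β-catenin, were lower at 8 h for 2 of 3 list members. The Tcf4 motif scored -1.91, -2.05, -2.48 and -1.62 at 8 h, against 0.814, 2.13, 2.34 and 1.39 at 0 h. All 8 h libraries lay below 0 and all 0 h libraries above it, and the fitted difference was -3.68 (SE 0.588; limma, adjusted p = 2e-07). The Tcf3 motif scored -1.39, -1.49, -1.28 and -1.22 at 8 h, against 0.0694, 1.46, 1.45 and 0.886 at 0 h. Here too the groups did not overlap, the 8 h libraries lay closer together than the 0 h libraries, and the difference was -2.31 (SE 0.490; limma, adjusted p = 4.3e-05). The TCFL2 motif scored -0.205, -0.918, -1.47 and -0.416 at 8 h, against -0.364, -0.744, 1.48 and -0.661 at 0 h. These groups overlapped, and the difference of -0.68 (SE 0.459) did not pass the test (limma, adjusted p = 0.191).

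**Figure D1:**
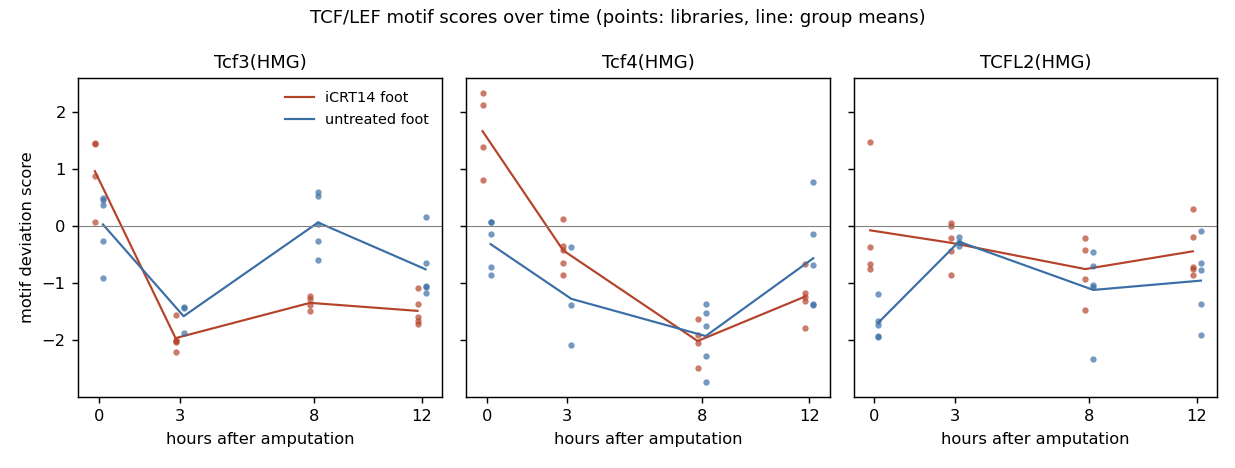
Deviation scores of the 3 TCF/LEF motifs (y axis) against hours after amputation (x axis), with 1 point per ATAC-seq library and lines through the group means, for iCRT14 foot and untreated foot tips. In iCRT14 the Tcf3 mean lay at -1.34 at 8 h and 0.968 at 0 h, while in untreated tips it lay at 0.0655 at 8 h and 0.0305 at 0 h.

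For Tcf3 and Tcf4, but not TCFL2, the change from 0 h to 8 h passed the test of a difference between treatments. In iCRT14 foot tips the Tcf3 score averaged 0.968 ± 0.657 at 0 h (SD, n = 4), -1.96 ± 0.242 at 3 h (n = 5), -1.34 ± 0.122 at 8 h (n = 4) and -1.48 ± 0.259 at 12 h (n = 5). In untreated foot tips it averaged 0.0305 ± 0.614 at 0 h (n = 5), -1.58 ± 0.259 at 3 h (n = 3), 0.0655 ± 0.513 at 8 h (n = 5) and -0.755 ± 0.549 at 12 h (n = 5). Low Tcf3 scores were thus seen at 3 h with and without the inhibitor, and the 8 h means lay apart. The change in the iCRT14 foot minus the change in the untreated foot, from 0 h to 8 h, was -2.35 for Tcf3 (SE 0.657; limma test of the difference of differences, adjusted p = 0.00315). For Tcf4 that difference was -2.07 (SE 0.788; adjusted p = 0.029), but its 8 h means were -2.01 ± 0.357 in iCRT14 and -1.93 ± 0.57 in untreated tips, and its 0 h means 1.67 ± 0.702 in iCRT14 and -0.314 ± 0.445 in untreated tips (SD). By these means the treatments lay further apart in Tcf4 at 0 h, after 2 h of inhibitor, than at 8 h, and levels between treatments were not tested. For TCFL2 the difference was -1.26 (SE 0.615; adjusted p = 0.0901), which did not pass.

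ETS motifs, bound in mammals by factors downstream of MAP kinase signalling, rose in most cases: 16 of 18 were higher at 8 h and 0 lower, with a median difference of 2.45 against 0.42 over all motifs. The motif named ETS scored 3.45, 3.53, 4.21 and 3.58 at 8 h, against -2.31, -5.23, -3.93 and -4.23 at 0 h (difference 7.62, SE 0.838; limma, adjusted p = 1.28e-11). ELF1 scored 3.44, 3.43, 4.12 and 3.5 at 8 h, against -2.31, -4.64, -3.95 and -4.10 at 0 h (difference 7.37, SE 0.83; adjusted p = 2.15e-11). In both motifs every 8 h library lay above 0 and every 0 h library below it. Elk1, a serum response cofactor in mammals, scored 3.73, 4.54, 3.94 and 3.92 at 8 h, against -0.356, -2.56, -2.04 and -2.42 at 0 h (difference 5.88, SE 0.726; adjusted p = 3.52e-10). The PU.1 and SPDEF motifs, with differences of 0.63 and 0.50, were the ETS members that did not pass.

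The Egr1, Egr2 and KLF14 motifs, all of zinc finger factors, were higher too. Egr1 and Egr2 belong to a zinc finger family that mammalian cells induce within minutes of a stimulus. Egr1 scored 1.93, 1.12, 2.34 and 2.89 at 8 h, against -4.57, -3.97, -3.76 and -5.24 at 0 h (difference 6.46, SE 0.622; limma, adjusted p = 2.27e-13). Egr2 scored 2.38, 2.05, 2.06 and 2.79 at 8 h, against -3.93, -4.83, -5.17 and -3.63 at 0 h (difference 6.71, SE 0.654; adjusted p = 3.08e-13). For both Egr motifs the sign of the score separated the times. KLF14, of the Krüppel-like family that binds GC-rich promoters, scored 2.08, 2.16, 1.91 and 2.23 at 8 h, against -3.40, -4.05, -4.58 and -3.57 at 0 h (difference 5.99, SE 0.514; adjusted p = 6.01e-15). Of the 59 zinc finger motifs, 21 were higher and 20 lower, with a median difference of 0.226, so that the zinc finger list as a whole did not lean far to one side.

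Max, the partner of Myc at E-box sites, had the tightest 8 h scores among the 8 motifs with the largest rises: 3.32, 3.42, 3.32 and 3.26 at 8 h, against -2.63, -2.99, -2.54 and -3.08 at 0 h. The gap was far wider than the spread within either time (difference 6.14, SE 0.544; limma, adjusted p = 1.5e-14). Other E-box motifs moved the same way. Usf2 was higher by 4.29, CLOCK by 3.67 and c-Myc (LNCAP) by 3.06 (each with adjusted p below 0.05 in limma). The bHLH list had 14 of 33 motifs higher and 3 lower (median 1.40). HIF2a, the oxygen-regulated bHLH factor of mammals, was among those lower, with -1.59, -1.92, -1.37 and -2.13 at 8 h, against -0.00368, -0.0751, -0.276 and -0.864 at 0 h (difference -1.45, SE 0.366; adjusted p = 0.000519).

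Forkhead motifs were higher in 9 of 10 cases with 0 lower (median 2.82). The composite Fox:Ebox motif showed the largest rise of all 332, with 5.22, 2.22, 6.20 and 5.15 at 8 h, against -5.47, -6.19, -4.66 and -5.55 at 0 h (difference 10.17, SE 1.14; limma, adjusted p = 1.9e-11). Replicate 2 was the lowest 8 h library and still lay above 0, and all 0 h libraries lay below it. FOXA1 (LNCAP) scored 2.22, -0.428, 1.82 and 1.30 at 8 h, against -5.68, -4.06, -4.06 and -4.64 at 0 h (difference 5.84, SE 1.04; adjusted p = 2.22e-06). Foxo1 was the forkhead motif that did not pass (0.85, adjusted p = 0.186).

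The bZIP motifs, bound by the Fos, Jun, Atf and CEBP proteins of the injury and stress response in animals, were uneven. Of the AP-1 type, 5 of 7 were higher and 0 lower (median 1.89). Fra2 scored 2.34, 3.19, 2.51 and 3.88 at 8 h, against 0.828, -4.85, -2.29 and -4.14 at 0 h (difference 5.59, SE 0.729; limma, adjusted p = 1.63e-09). Jun-AP1 scored 1.29, 1.98, 1.39 and 3.53 at 8 h, against 0.719, -5.35, -2.70 and -4.15 at 0 h (difference 4.91, SE 0.728; adjusted p = 4.08e-08). In both, replicate 1 of the 0 h group stood far above the other 0 h libraries, yet the groups did not overlap. Atf3 and Fosl2 did not pass, and for these 2 motifs that same 0 h library, at 2.42 and 2.2, was above every 8 h library.

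Atf4 and Chop, which mammalian cells use in the response to unfolded or missing protein, rose without such a library. Atf4 scored 3.32, 3.72, 2.67 and 2.25 at 8 h, against -1.73, -2.48, -1.62 and -1.86 at 0 h (difference 4.91, SE 0.450; limma, adjusted p = 4.28e-14). Chop scored 3.32, 4.11, 1.87 and 2.57 at 8 h, against -2.44, -2.55, -1.23 and -2.86 at 0 h (difference 5.23, SE 0.599; adjusted p = 3.74e-11). The times did not overlap in either motif. The CEBP, Atf4 and Chop list had 3 of 5 higher and 1 lower (median 1.89), and the Bach, Maf, NF-E2 and Nrf2 list 3 of 7 higher and 1 lower (median 0.94). CRE type motifs were called in 0 of 6 cases although their median difference was 1.42, and the SEs of these 6 differences were 0.878 to 1.65.

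Among the falls, Smad motifs, bound in animals by the effectors of TGF-β and BMP signalling, were lower in 3 of 3 cases (median -5.33). Smad4 scored -3.03, -3.26, -1.51 and -1.64 at 8 h, against 3.57, 4.29, 3.27 and 5.33 at 0 h (difference -6.47, SE 0.551; limma, adjusted p = 6.01e-15). Smad2 scored -3.40, -3.57, -2.02 and -2.64 at 8 h, against 1.30, 3.14, 2.31 and 2.93 at 0 h (difference -5.33, SE 0.523; adjusted p = 3.54e-13). Smad3 had a difference of -3.34 (SE 0.517; adjusted p = 1.09e-07), and in each Smad motif all 8 h libraries were negative and all 0 h libraries positive. TEAD motifs, bound by the DNA-binding partners of YAP in the Hippo pathway, were lower in 3 of 3 cases with a median of -2.66. Scores of the motif named TEAD were -1.59, -3.34, -1.64 and -1.84 at 8 h, against 0.575, 1.60, -0.522 and 1.38 at 0 h (difference -2.86, SE 0.434; adjusted p = 6.94e-08).

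GATA motifs were lower in 8 of 9 cases and higher in 0, with a median of -4.06. Gata2 scored -2.47, -3.85, -1.97 and -3.29 at 8 h, against 2.29, 2.56, 1.32 and 3.12 at 0 h (difference -5.21, SE 0.522; limma, adjusted p = 6.86e-13). Gata1 scored -2.09, -3.84, -2.08 and -2.92 at 8 h, against 2.14, 2.67, 1.22 and 3.00 at 0 h (difference -4.99, SE 0.518; adjusted p = 2.03e-12). The sign of the score separated the times for both, and Gata4 was the member that did not pass (1.26, adjusted p = 0.159).

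Homeobox motifs were lower in 16 of 39 cases and higher in 7 (median -0.631). Those with the largest falls are named after factors of the vertebrate head and nervous system. GSC, named for goosecoid of the vertebrate organizer, scored -4.71, -3.32, -3.06 and -2.94 at 8 h, against 3.88, 5.32, 1.87 and 3.83 at 0 h (difference -7.23, SE 1.04; limma, adjusted p = 2.14e-08). Otx2, a forebrain factor in vertebrates, scored -3.02, -2.51, -2.13 and -2.39 at 8 h, against 2.37, 4.09, 1.07 and 3.19 at 0 h (difference -5.19, SE 0.743; adjusted p = 1.91e-08). No library of one time reached the other in these motifs, which the rule for naming them required. Pitx1, of the same paired-like class, scored -3.61, -2.38, -3.90 and -4.15 at 8 h, against 1.87, 2.93, 0.369 and 4.17 at 0 h (difference -5.85, SE 0.830; adjusted p = 1.6e-08). Phox2a, of autonomic neurons in mammals, scored -1.76, -1.63, -1.08 and -2.32 at 8 h, against 2.23, 4.56, 3.51 and 2.68 at 0 h (difference -4.94, SE 0.585; adjusted p = 1.03e-10). HOXB13 was higher at 8 h, with a difference of 2.36 (adjusted p = 1.38e-09).

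**Figure D2:**
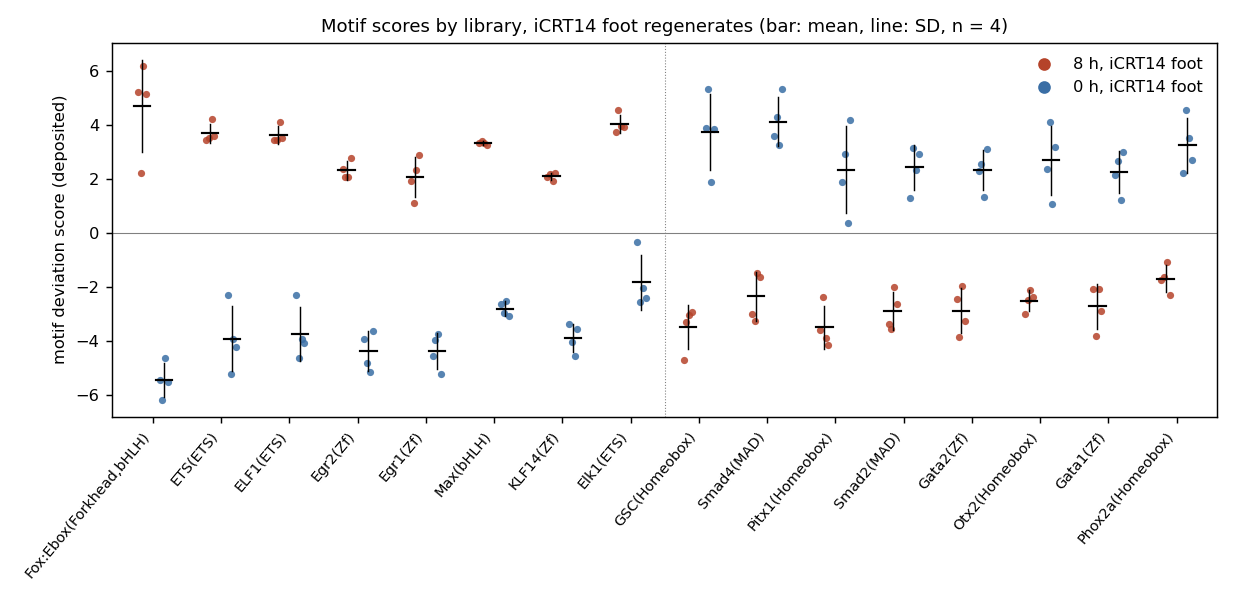
Deviation scores (y axis) of the 8 motifs with the largest rises and the 8 with the largest falls between 8 h and 0 h iCRT14 foot tips, with 1 point per ATAC-seq library, a bar at the mean and a line for the SD (n = 4 each). In each of the 16 motifs the 8 h and 0 h libraries did not overlap, which the rule for naming them required.

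The remaining lists moved in both directions or little. Sox motifs were lower in 4 of 7 cases and higher in 1 (median -0.896). Sox10 scored -0.933, -1.07, -0.664 and -0.797 at 8 h, against 0.775, 2.97, 1.55 and 1.29 at 0 h, while Sox6 scored 1.53, 3.21, 0.610 and 0.529 at 8 h, against -0.0518, -1.24, -0.0874 and 0.0118 at 0 h. These members of 1 family thus had opposite signs, with limma adjusted p of 1.18e-06 and 0.00207. Paired motifs were lower in 5 of 8 cases and higher in 1 (median -1.67), and POU motifs were higher in 2 of 9 and lower in 2 (median 0.701). MADS motifs, bound by the Mef2 and serum response factors, were higher in 3 of 5 with 0 lower (median 1.84), and IRF motifs in 4 of 5 with 0 lower (median 1.8). Stat motifs were higher in 3 of 7 and lower in 1 (median 0.513), and RHD motifs, of the NF-κB and NFAT factors, in 1 of 4 and lower in 1 (median 0.108). Nuclear receptor motifs were higher in 6 of 29 and lower in 8 (median 0.0358).

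**Figure D3:**
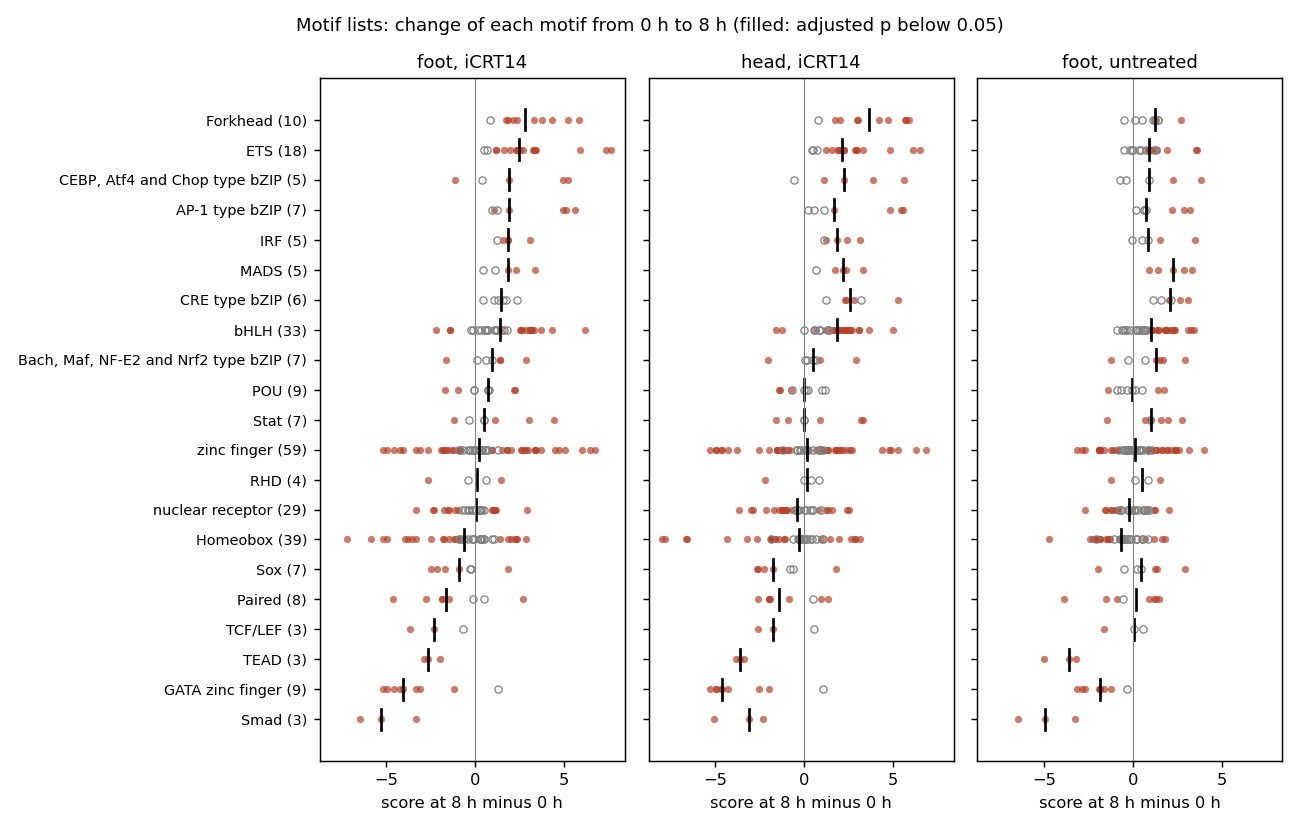
Difference in deviation score between 8 h and 0 h (x axis) for each motif of the lists (rows), in iCRT14 foot, iCRT14 head and untreated foot tips; filled points have a limma adjusted p below 0.05 and the bar is the list's median. The ETS median was 2.45 in the iCRT14 foot, 2.15 in the iCRT14 head and 0.885 in the untreated foot, and the GATA median -4.06 in the iCRT14 foot, -4.60 in the iCRT14 head and -1.88 in the untreated foot.

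At single peaks, 15612 of 108934 changed between 8 h and 0 h (14.3%; edgeR quasi-likelihood test, adjusted p below 0.05), of which 6743 opened (6.19%) and 8869 closed (8.14%). The median log2 difference was 0.91 for peaks that opened and -0.73 for peaks that closed, and 2784 opened and 2047 closed by at least 2-fold. The largest changes were openings: 328 peaks opened and 59 closed by at least 4-fold. Since the 8 h libraries were shallower, counts were also thinned to the shallowest library, after which 12140 peaks changed, with 5940 opened and 6200 closed. With only the 35 iCRT14 libraries in the model, 6943 opened and 6593 closed. Without replicate 1 at 0 h 5861 opened and 5735 closed, and without replicate 4 at 8 h 6209 opened and 5790 closed. The other fits with 1 library left out kept more closed than opened peaks. The excess of closed over opened peaks thus did not hold in each fit.

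The peak with the largest rise, peak 42955 on scaffold Sc4wPfr_252.1 from 346573 to 346840, was covered at 185, 131, 297 and 370 CPM (counts per M of the library total after TMM scaling) at 8 h, against 7.18, 4.48, 6.42 and 5.57 CPM at 0 h. The lowest 8 h library was far above every 0 h library (log2 difference 5.38, SE 0.801; edgeR, adjusted p = 2.28e-07). Its higher 8 h values came from replicates 3 and 4, the libraries with the smaller totals, unlike in peak 54952. The part of depth in this was not tested. Peak 54952, on Sc4wPfr_322.1 from 183786 to 184188, had 26.1, 48.7, 52.6 and 29.3 CPM at 8 h, against 1.92, 0.480, 2.09 and 1.11 CPM at 0 h (4.82, SE 0.808; adjusted p = 3.65e-06). Peak 62902, on Sc4wPfr_377 from 255113 to 255427, had 26.6, 15.1, 46.3 and 47.0 CPM at 8 h, against 1.25, 1.39, 1.04 and 1.25 CPM at 0 h (4.76, SE 0.718; adjusted p = 3.31e-07). Peaks 111958, 26381 and 71731 opened by 4.54, 4.51 and 4.32 on the log2 scale. Of these, peak 71731, on Sc4wPfr_439 from 1297769 to 1297919, had the smallest adjusted p, 7.85e-14, with 13.7, 8.51, 10.6 and 7.18 CPM at 8 h, against 0.167, 0.747, 0.313 and 0.696 CPM at 0 h. It lay among other changing peaks: 5 of its 9 neighbours within 10 kb opened and 1 closed. No annotation places these peaks relative to genes here.

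The largest falls were smaller on the log2 scale than the largest rises. Peak 83820, on Sc4wPfr_547.1 from 1114944 to 1115233, had 0.372, 0.0978, 0.259 and 0.128 CPM at 8 h, against 1.5, 3.47, 2.04 and 2.16 CPM at 0 h (log2 difference -3.36, SE 0.528; edgeR, adjusted p = 8.66e-07). Its 8 h values stood on 1 to 4 counts per library. Peak 86981, on Sc4wPfr_582 from 1236707 to 1237093, rested on more reads, with 3.44, 2.54, 2.97 and 2.95 CPM at 8 h, against 21.4, 16.2, 14.5 and 14.5 CPM at 0 h (-2.47, SE 0.228; adjusted p = 2.22e-14). Peak 76338, on Sc4wPfr_479.1 from 233552 to 234321, had 1.68, 3.23, 1.55 and 2.31 CPM at 8 h, against 9.43, 14.2, 10.7 and 16 CPM at 0 h (-2.51, SE 0.254; adjusted p = 9.27e-13). In none of these 3 did the times overlap, which the rule for naming them required. The other peaks among the 6 largest falls, 53141, 87841 and 84978, had log2 differences of -2.89, -2.65 and -2.44.

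**Figure D4:**
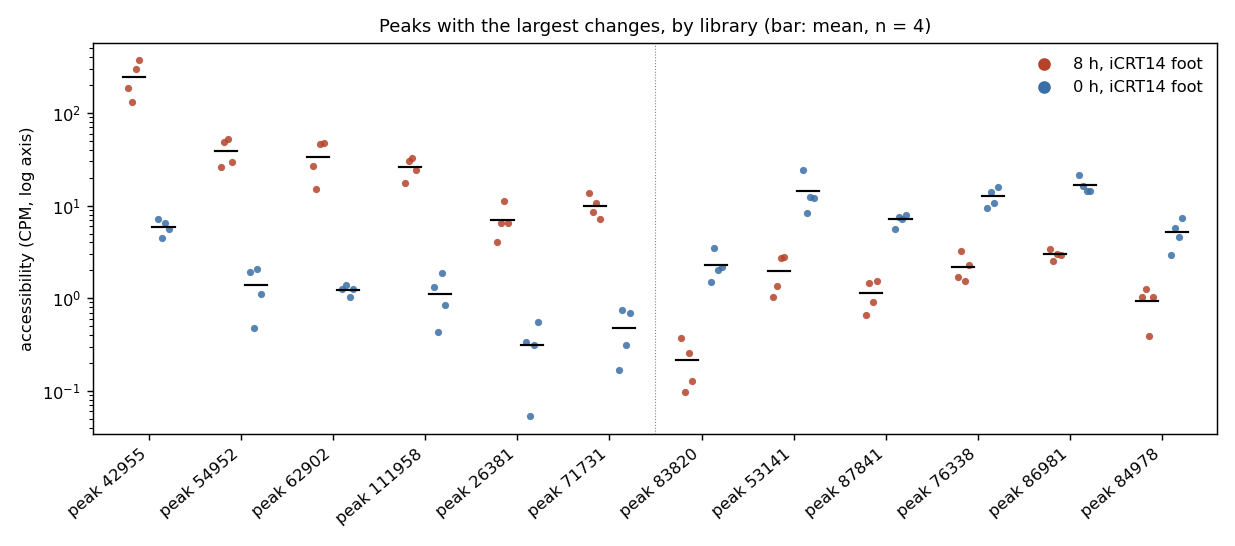
Coverage in CPM (log y axis) of the 6 peaks with the largest rises and the 6 with the largest falls between 8 h and 0 h iCRT14 foot tips, with 1 point per ATAC-seq library and a bar at the mean (n = 4 each). Peak 42955 ran from 131 to 370 CPM at 8 h and from 4.48 to 7.18 CPM at 0 h.

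Changed peaks were wider and lay near each other. Peaks that opened had a median width of 669 bp and those that closed 747 bp, against 577 bp for peaks not called. The share that opened was 5.47% among peaks of up to 250 bp and 10.6% among those over 1500 bp, and the share that closed was 4% and 11.1%. Wider peaks hold more reads, and the part of depth in these shares was not tested. Among opened peaks with a next peak within 5 kb, the next one had also opened in 24.7% of 4344 cases, against 6.87% over all such pairs, and it had closed in 4.6%. Among closed peaks the next one had also closed in 25.7% of 5676 cases, against 8.94%, and it had opened in 3.28%.

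Transcript levels changed as well. Of 19989 gene models, 3482 changed between 8 h and 0 h (17.4%; edgeR quasi-likelihood test, adjusted p below 0.05), with 2008 higher at 8 h (10%) and 1474 lower (7.37%). Without replicate 3 at 8 h the count was 5428, with 2833 higher (13.7%) and 2595 lower (12.5%), and 1917 of the 2008 and 1354 of the 1474 were called in the same direction. That library moved less: the 2008 risen gene models lay at a median of 0.892 above the 0 h mean in it, against 1.34 and 1.33 in replicates 1 and 2 (log2 CPM), and the 1474 fallen ones at -0.583, against -0.783 and -0.786. Without replicate 1 at 8 h the count was 2266. In pooled tips, fewer cells of a type and less RNA per cell cannot be told apart.

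Called rises were larger in the median than called falls. The median log2 difference was 1.25 for risen gene models and -0.73 for fallen ones. It was 1.24 with the 39 risen models that had no count in any 0 h library set to their bound against 3 counts per library, and -0.73 with the 7 fallen ones that had none at 8 h set likewise. With these bounds, 1297 models rose and 422 fell by at least 2-fold, and 521 rose and 85 fell by at least 4-fold. Risen models had a median level of 13.2 CPM at 8 h and 4.99 CPM at 0 h, and fallen ones 15.1 CPM at 8 h and 25.8 CPM at 0 h. Among the models called without replicate 3 at 8 h, with the same bounds, the medians were 1.22 and -0.825, 1766 rose and 1002 fell by at least 2-fold, and 698 rose and 282 fell by at least 4-fold. Without it risen models stood at 12.8 CPM at 8 h and 5.20 CPM at 0 h, and fallen ones at 15.5 CPM at 8 h and 27.1 CPM at 0 h. The split depends on scaling: with library size alone in place of TMM, 2335 rose and 1034 fell, and the median over all gene models was 0.142 in place of 0.0408 on the log2 scale.

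**Figure D5:**
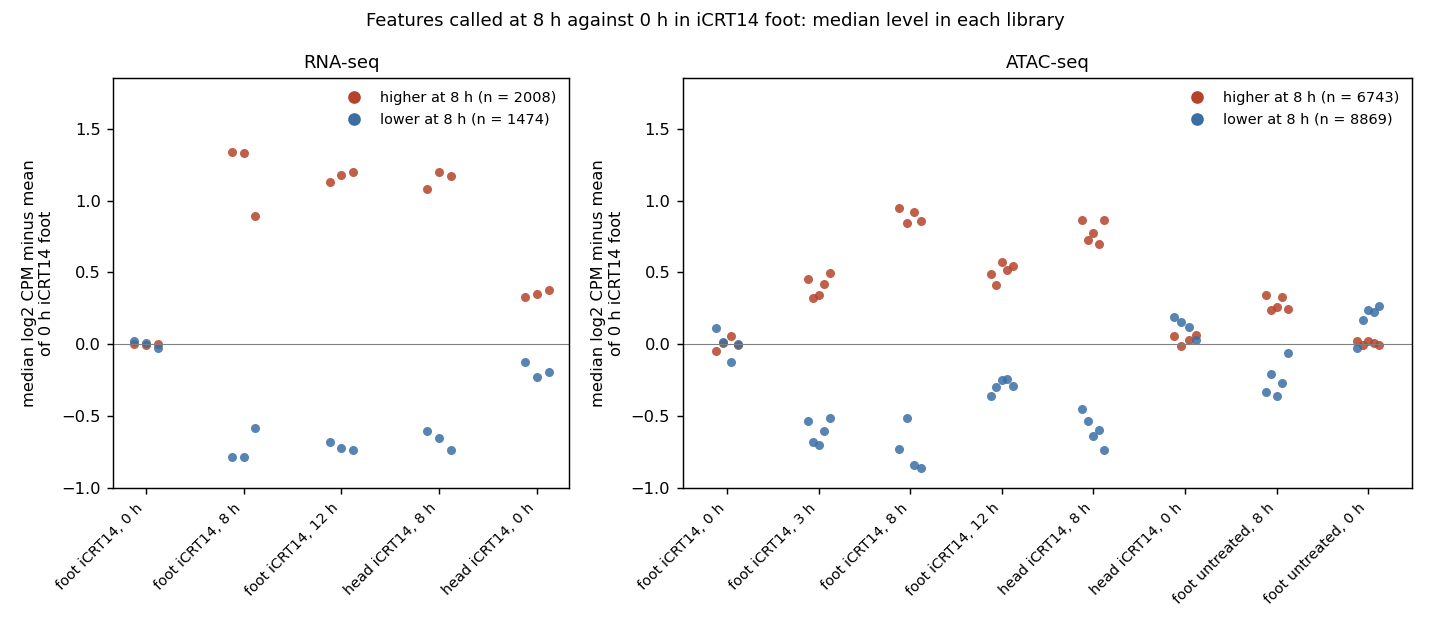
Median log2 CPM of the called gene models (RNA) and peaks (ATAC) in each library, minus their mean in 0 h iCRT14 foot tips (y axis), by group (x axis), with 1 point per library. Replicate 3 of the 8 h iCRT14 foot lay at 0.892 for risen and -0.583 for fallen gene models, between its own replicates and the 0 h libraries; these sets were chosen on the 8 h and 0 h iCRT14 foot libraries, so their position there is a description.

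The gene models with the largest changes are known only by their IDs. g3893 stood at 548, 547 and 634 CPM at 8 h, against 0.403, 0.162 and 0.424 CPM at 0 h. All 8 h libraries were high, replicate 3 included, and the 0 h libraries had 3 to 9 counts each (log2 difference 10.74, SE 0.487; edgeR, adjusted p = 1.17e-13). g16973 had 12.9, 9.12 and 8.73 CPM at 8 h, against no count in any 0 h library, which made it at least 59.4-fold higher (taking 3 counts in the shallowest 0 h library; adjusted p = 4.65e-11). Among the falls, g14018 had 0.296, 0.0445 and 0.119 CPM at 8 h, against 10.1, 10.3 and 8.80 CPM at 0 h (-5.88, SE 0.534; adjusted p = 1.95e-08). g24936 had 0.777, 1.69 and 0.834 CPM at 8 h, against 20.7, 20.8 and 20.7 CPM at 0 h (-4.24, SE 0.335; adjusted p = 1.75e-09). No library of one time reached the other in these 4, which the rule for naming them required. In 12 h iCRT14 foot tips g3893 averaged 755 ± 189 CPM and g24936 1.07 ± 0.0743 CPM (SD, n = 3), close to the 8 h means of 577 ± 50.2 and 1.10 ± 0.512 CPM.

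To ask whether the inhibitor altered the course of foot regeneration, the change from 0 h to 8 h in the iCRT14 foot was set against that in the untreated foot, by a test of the difference of differences. It differed for 138 of 332 motifs (41.6%; limma), with 82 more positive (24.7%) and 56 more negative (16.9%) in iCRT14, for 2429 of 108934 peaks (2.23%; edgeR, 1797 or 1.65% more positive and 632 or 0.58% more negative) and for 3786 of 20894 gene models (18.1%; edgeR, 1762 or 8.43% more positive and 2024 or 9.69% more negative). With library size alone the peaks split into 1580 and 1134 and the gene models into 2660 and 917. In RNA-seq the untreated 0 h and 8 h libraries were made with the TruSeq kit and the iCRT14 libraries with the KAPA kit, so that kit and treatment cannot be told apart there, and the RNA count was 5680 without replicate 3 at 8 h, 1564 without the libraries numbered 1 and 1568 without those numbered 2. In ATAC-seq 1 protocol was used throughout, and the peak count was 1376 without 8 h replicate 1 and 956, 1485, 1369 and 1381 without the libraries numbered 1, 2, 3 and 4.

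ETS motifs differed with treatment in 11 of 18 cases, all with the larger rise in iCRT14 (median difference of differences 2.05, against 0.043 over all motifs). The motif named ETS averaged 3.69 ± 0.35 in iCRT14 and -2.01 ± 0.766 in untreated tips at 8 h, and -3.93 ± 1.21 in iCRT14 and -5.56 ± 0.673 in untreated tips at 0 h (SD, n = 4 and 5). It rose in both, and the untreated mean lay below 0 at both of these times (difference of differences 4.07, SE 1.12, limma adjusted p = 0.00283). At 3 h the ETS score averaged 0.983 ± 1.31 in untreated tips (n = 3) and 1.62 ± 0.819 in iCRT14 (n = 5). At 12 h it averaged 1.19 ± 1.97 in untreated tips and 2.51 ± 1.91 in iCRT14 (n = 5 each). These 12 h scores were split by replicate number. Untreated replicates 1 and 2 had -0.929 and -0.851, against 1.79, 2.73 and 3.22 in replicates 3 to 5. In iCRT14 they had 0.907 and 0.144, against 4.36, 2.91 and 4.21, and the split was not tested. The Egr1 and Max motifs rose from 0 h to 8 h in the inhibitor and had no call between these times without it. The untreated foot gave differences of 0.82 (limma, adjusted p = 0.212) and 0.66 (adjusted p = 0.246). The differences of differences were 5.64 (SE 0.835, limma adjusted p = 5.12e-07) and 5.48 (SE 0.730, adjusted p = 5.15e-08). Untreated Egr1 averaged -3.53 ± 0.337 at 0 h, 4.41 ± 0.864 at 3 h (n = 3) and -2.71 ± 1.01 at 8 h. Untreated Max averaged -0.335 ± 0.689, 1.40 ± 0.773 and 0.329 ± 0.902 at these times. In iCRT14 the 3 h means were 2.94 ± 0.431 for Egr1 and 2.25 ± 1.32 for Max (n = 5), and Max stood at -2.81 ± 0.265 at 0 h. bHLH motifs differed upwards in 12 of 33 cases and downwards in 1, and AP-1 type motifs upwards in 3 of 7.

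For Fox:Ebox and Phox2a the treatment means lay further apart at 0 h than at 8 h. Fox:Ebox, with the largest difference of differences (6.20, SE 1.53; limma, adjusted p = 0.000884), averaged 4.70 ± 1.72 in iCRT14 and 4.33 ± 1.38 in untreated tips at 8 h, and -5.47 ± 0.63 in iCRT14 and 0.364 ± 1.28 in untreated tips at 0 h. Phox2a averaged -1.70 ± 0.51 in iCRT14 and -2.20 ± 0.554 in untreated tips at 8 h, and 3.25 ± 1.02 in iCRT14 and -0.81 ± 0.641 in untreated tips at 0 h (SD, n = 4 and 5). In both motifs the 0 h libraries of the 2 treatments did not overlap and the 8 h libraries did. GSC fell by more in iCRT14 (difference of differences -5.17, SE 1.40; adjusted p = 0.0024), with -3.51 ± 0.818 in iCRT14 and -0.40 ± 2.53 in untreated tips at 8 h, and 3.72 ± 1.42 in iCRT14 and 1.66 ± 1.01 in untreated tips at 0 h, so that its means lay further apart at 8 h. GATA motifs differed downwards in 4 of 9 cases and Sox motifs in 4 of 7, with 1 Sox motif upwards.

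Smad motifs did not pass in any of 3 cases. Their median difference was -5.33 in the iCRT14 foot and -4.94 in the untreated foot, and the difference of differences was 1.16 for Smad2 (SE 0.702; adjusted p = 0.176), -0.07 for Smad3 (SE 0.694; adjusted p = 0.945) and -1.53 for Smad4 (SE 0.740; adjusted p = 0.0868). TEAD motifs fell less in iCRT14, upwards in 2 of 3 cases. YY1, a zinc finger factor that both activates and represses in mammals, had 0.519 ± 0.628 at 8 h and 0.799 ± 0.608 at 0 h in iCRT14, against 2.24 ± 0.975 at 8 h and -1.75 ± 0.631 at 0 h in untreated tips. It rose in untreated tips (3.99, adjusted p = 3.95e-07) with no call in iCRT14 (-0.28, adjusted p = 0.728), and the difference of differences was -4.27 (SE 0.932; limma, adjusted p = 0.000245).

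Among single peaks, 42955 opened more in iCRT14. The untreated foot had a lowest, median and highest value of 13.1, 18.6 and 57.5 CPM at 8 h and of 9, 9.46 and 11.7 CPM at 0 h, and the difference of differences was 4.03 on the log2 scale (SE 0.965; edgeR, adjusted p = 0.00803). It lost the call without the libraries numbered 3 (adjusted p = 0.0646) or 4 (adjusted p = 0.084). At 12 h peak 42955 averaged 146 ± 99.5 CPM in iCRT14 and 164 ± 144 CPM in untreated tips (SD, n = 5 each), with wide spread in both. The spread followed the replicate numbers. Replicates 1 and 2 had 38.7 and 50.9 CPM in iCRT14, against 263, 156 and 218 CPM in replicates 3 to 5. In untreated tips they had 15.1 and 12.2 CPM, against 214, 328 and 253 CPM. Peaks 54952, 62902, 111958 and 26381 were split the same way at 12 h, while 71731 was not in untreated tips. Library totals at 12 h were 14.4 and 12.9 M counts in untreated replicates 1 and 2. Untreated replicates 3 to 5 had 8.53, 9.53 and 8.22 M. In iCRT14 the totals were 11.2 and 13.6 M in replicates 1 and 2, against 9.97, 11.2 and 9.02 M. The part of depth or of replicate number in this split was not tested. Peak 62449, on Sc4wPfr_372 from 400283 to 400771, had 1.49, 1.86, 4.14 and 2.18 CPM at 8 h in iCRT14, against 0.0834, 0.213, 0.209 and 0.209 CPM at 0 h, and averaged 0.528 ± 0.222 at 8 h and 0.472 ± 0.113 CPM at 0 h in untreated tips. The difference of differences was 3.51 (SE 0.689; adjusted p = 0.000602), and the 0 h values in iCRT14 stood on 1 to 4 counts per library.

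Peak 26899, on Sc4wPfr_175.1 from 162543 to 163004, went opposite ways. It had 2.23, 0.587, 2.07 and 2.31 CPM at 8 h in iCRT14, against 9.09, 6.56, 7.99 and 5.22 CPM at 0 h, and averaged 5.29 ± 2.70 CPM at 8 h and 2.49 ± 0.982 CPM at 0 h in untreated tips (SD, n = 5). It closed in iCRT14 (-2.02, edgeR adjusted p = 2.64e-05) and opened in untreated tips (1.13, adjusted p = 0.00347), a difference of differences of -3.15 (SE 0.470; adjusted p = 3.01e-06). Peak 80840, on Sc4wPfr_513 from 81401 to 81625, had the most negative difference of differences, -5.21, but this rested on low values in iCRT14 and was lost without 0 h replicate 4 (-3.19, adjusted p = 0.611). It averaged 0.176 ± 0.0935 at 8 h and 0.381 ± 0.583 CPM at 0 h in iCRT14, and 4.22 ± 3.28 at 8 h and 0.223 ± 0.225 CPM at 0 h in untreated tips.

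The 4 named gene models changed less without the inhibitor. They were chosen for the largest changes in the iCRT14 foot, so that smaller changes elsewhere follow in part from that choice. The differences of differences use those same iCRT14 libraries. g3893 averaged 50.3 ± 12.3 CPM at 8 h and 0.76 ± 0.22 CPM at 0 h in untreated tips (SD, n = 3 each), and the difference of differences was 4.70 (SE 0.739; edgeR, adjusted p = 1.51e-05). Its untreated level was higher at 3 h, at 122 ± 27.2 CPM. g16973 averaged 0.827 ± 0.106 CPM at 8 h and 0.284 ± 0.253 CPM at 0 h in untreated tips (adjusted p of the difference of differences 1.98e-07). g14018 averaged 2.25 ± 0.756 at 8 h and 4.56 ± 0.912 CPM at 0 h in untreated tips (difference of differences -4.87, SE 0.595; adjusted p = 1.5e-07), and g24936 averaged 11.7 ± 1.54 at 8 h and 12.9 ± 0.803 CPM at 0 h (-4.11, SE 0.349; adjusted p = 5.64e-11). The kit differs between the treatments for each of these values.

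No library is shared between the iCRT14 foot and untreated foot changes, so their calls can be counted together. Of the gene models that rose in iCRT14, 339 also rose in untreated tips (16.9% of the iCRT14 list and 43.1% of the untreated list), where 5.15% of all gene models changed, 3.76% rose and 1.39% fell, and 41 fell there. Of those that fell, 75 also fell in untreated tips (5.09% and 25.8%) and 76 rose. Across 19870 gene models the 2 log2 changes correlated at r = 0.147. Without replicate 3 at 8 h, 338 rose in both (12% and 43%), 74 fell in both (2.86% and 25.4%), and r was 0.0876. These untreated RNA libraries were made with the TruSeq kit and the iCRT14 ones with KAPA. Kit and treatment therefore cannot be told apart in the overlaps of gene models. For peaks, where 15% changed in the untreated foot (6% opened and 8.97% closed), 1504 opened in both (22.3% and 23%) and 4250 closed in both (47.9% and 43.5%), with r = 0.49 across 108934 peaks. For motifs, where 53.9% changed in the untreated foot (32.2% higher and 21.7% lower), 55 were higher in both (48.7% and 51.4%) and 48 lower (52.2% and 66.7%), with r = 0.64 across 332 motifs. Features of 1 library set share depth and scaling, and these correlations are descriptions.

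The foot was also set against the head side, to ask whether they changed differently in the inhibitor. The iCRT14 head, from other libraries, changed at 28713 peaks (26.4%; 13.7% opened and 12.7% closed), 225 motifs (67.8%; 39.2% higher and 28.6% lower) and 2570 gene models (12.9%; 6.39% rose and 6.46% fell). Of the gene models that rose in the foot, 979 rose in the head (48.8% of the foot list and 76.6% of the head list) and 0 fell, and of those that fell, 699 fell in the head (47.4% and 54.1%) and 0 rose. For peaks, 4792 opened in both (71.1% and 32.2%) and 6582 closed in both (74.2% and 47.6%), with 3 and 4 in opposite directions. For motifs, 96 were higher in both (85% and 73.8%) and 79 lower (85.9% and 83.2%). The correlations of the changes were 0.564 across 19989 gene models, 0.675 across 108934 peaks and 0.937 across 332 motifs. Without replicate 3 of the 8 h foot, 957 gene models rose in both (34.2% and 74.9%) and 650 fell in both (25.2% and 50.3%), with r = 0.435. Both sides had KAPA libraries in RNA-seq, unlike the overlap with the untreated foot.

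Few features passed the test of a different change on the foot than on the head side. A feature without a call was not thereby shown to change alike on both sides. With no difference at all, a share of 0.05 of the features would have an unadjusted p below 0.05. The test of the difference of differences called 0 of 19989 gene models (0%; edgeR; 2096 had an unadjusted p below 0.05, and the lowest adjusted p was 0.458). It called 2 with all 42 RNA libraries in the model, and 32 without replicate 3 of the 8 h foot. In ATAC-seq 7960 of 108934 peaks had an unadjusted p below 0.05 (edgeR). The test called 8 of them (0.00734% of all), with 2 more positive (0.00184%) and 6 more negative (0.00551%) in the foot. It called 1 to 5 peaks with 1 library or number left out, 27 with library size alone (6 more positive and 21 more negative), 14 with a replicate block, 13 with 1 subtracted from every count and 1 with DESeq2 size factors. A further 4 of 332 motifs were called (1.2%; limma), all more negative in the foot, and 1 to 10 with 1 library or number left out.

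Of those peaks, 87574 and 87575 are next to each other on Sc4wPfr_589, from 18154 to 18436 and from 18853 to 19811. Peak 87575 had 36.5, 36.0, 30.4 and 24.1 CPM at 8 h in the foot, against 21.4, 19.7, 16.8 and 20 CPM at 0 h. In the iCRT14 head it averaged 14.4 ± 3.49 CPM at 8 h (SD, n = 5) and 24.4 ± 6.64 CPM at 0 h (n = 4). It opened in the foot and closed in the head, and the difference of differences was 1.46 on the log2 scale (SE 0.216; edgeR, adjusted p = 0.000203). Peak 87574 had 20.1, 19.3, 17.7 and 9.99 CPM at 8 h in the foot, against 9.51, 10.5, 5.80 and 11.8 CPM at 0 h, and averaged 5.44 ± 1.45 at 8 h and 11.9 ± 7.36 CPM at 0 h in the head (1.98, SE 0.393; adjusted p = 0.0445). In untreated foot tips both peaks closed: 87575 averaged 14.9 ± 1.31 at 8 h and 20.3 ± 1.04 CPM at 0 h, and 87574 averaged 3.24 ± 0.777 at 8 h and 7.84 ± 1.91 CPM at 0 h. Peak 91059, on Sc4wPfr_62 from 3092377 to 3092883, averaged 5.62 ± 1.90 at 8 h and 23.4 ± 4.30 CPM at 0 h in the foot, and 21.6 ± 7.39 at 8 h and 28.0 ± 1.36 CPM at 0 h in the head (-1.70, SE 0.325; adjusted p = 0.0445). Peak 49399, on Sc4wPfr_29 from 754195 to 755006, averaged 3.44 ± 2.05 at 8 h and 5.03 ± 0.444 CPM at 0 h in the foot, and 9.16 ± 2.77 at 8 h and 4.55 ± 0.72 CPM at 0 h in the head (-1.52, SE 0.305; adjusted p = 0.0445). Among these 4 peaks, 87575 kept its call under each alternative fit and the others lost it under some.

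The 4 motifs were Smad2, Phox2a, HIF2a and MYB. Smad2 averaged -2.91 ± 0.719 at 8 h and 2.42 ± 0.826 at 0 h in the foot (SD, n = 4 each), and -0.674 ± 1.33 at 8 h (n = 5) and 1.65 ± 0.667 at 0 h (n = 4) in the head. It fell on both sides, by more in the foot (difference of differences -3.01, SE 0.721; limma, adjusted p = 0.0149). Phox2a averaged -1.70 ± 0.51 at 8 h and 3.25 ± 1.02 at 0 h in the foot, and 0.455 ± 0.366 at 8 h and 2.34 ± 0.912 at 0 h in the head (-3.06, SE 0.807; adjusted p = 0.0284). MYB, named for a factor of proliferating precursor cells in vertebrates, averaged -1.88 ± 0.299 at 8 h and -0.52 ± 0.562 at 0 h in the foot, and 0.498 ± 0.499 at 8 h and -0.447 ± 0.66 at 0 h in the head (-2.30, SE 0.518; adjusted p = 0.0128). HIF2a averaged -1.75 ± 0.339 at 8 h and -0.305 ± 0.39 at 0 h in the foot, and -0.13 ± 0.848 at 8 h and -0.741 ± 0.398 at 0 h in the head (-2.06, SE 0.505; adjusted p = 0.0149). With only the 4 groups compared in the model, 0 motifs were called. Each TCF/LEF motif missed this test, with differences of differences of 0.29 for Tcf3 (SE 0.675; adjusted p = 0.894), -1.94 for Tcf4 (SE 0.810; adjusted p = 0.287) and -1.24 for TCFL2 (SE 0.632; adjusted p = 0.501).

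The sets of changed features held part of their shift at 12 h. Peaks that opened had a median log2 level over the 0 h mean of 0.423 at 3 h, 0.888 at 8 h and 0.514 at 12 h in iCRT14 foot tips, and of 0.0116 at 0 h and 0.261 at 8 h in untreated tips (medians over libraries). Peaks that closed lay at -0.604 at 3 h, -0.784 at 8 h and -0.29 at 12 h in iCRT14, and at 0.224 at 0 h and -0.269 at 8 h in untreated tips. Risen gene models lay at 1.33 at 8 h and 1.18 at 12 h, and fallen ones at -0.783 at 8 h and -0.722 at 12 h. In the sets called without replicate 3 at 8 h, risen models lay at 1.19 at 8 h and 0.94 at 12 h, and fallen ones at -0.826 at 8 h and -0.646 at 12 h. The labels name no RNA-seq library at 3 h in iCRT14. The 3 h and 12 h values are set against the same 0 h libraries that chose the sets, and are given without a test.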

How the data were processed

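The RNA-seq table held estimated counts per gene model as the authors deposited it (33820 gene models), and its values were rounded to whole numbers. The ATAC-seq table held counts of reads in 115968 consensus peaks, as deposited, with a lowest count of 1. The third table held deviation scores for 332 motifs, as deposited, and its columns are named after shifted alignments, per the file headers. The tool and scale of the scores and the genome build are not given in the sources used here. Peak positions are printed as deposited, and whether they count from 0 or 1 is not given. The submitters' processing notes name Trimmomatic 0.36, Bowtie2 and RSEM 1.2.31 for RNA-seq, and Trimmomatic 0.36, Bowtie2 2.2.6, Picard 2.17.8, SAMtools 1.2, deepTools 3.3.1 and DiffBind for ATAC-seq.

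Counts were tested with edgeR 4.0.16 (quasi-likelihood, filterByExpr, TMM; R 4.3.3) and scores with limma 3.58.1, with 1 mean per group and Benjamini-Hochberg adjustment over all features. RNA fits used the 24 KAPA libraries, or all 42 for comparisons with untreated tips; ATAC-seq and score fits used all 71. CPM are TMM-scaled. SEs of counts were taken from the F statistic and are approximate. DESeq2 1.42.0, other scalings, filters, library sets, thinned counts, a replicate block and leaving out libraries were alternatives. Sizes, levels and overlaps without replicate 3 of the 8 h foot were added after seeing the data. Scripts were tested on simulated data. Intervals and p-values cover counting and replicate error only.

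Named features had an adjusted p below 0.05, no overlap between groups and, for counts, a mean of at least 5 CPM (gene models) or 2 CPM (peaks) in the higher group. Among these, the 2 gene models, 6 peaks and 8 motifs with the largest change each way were named, plus the TCF/LEF motifs. For each difference of differences, the 2 largest each way were named for peaks and motifs. Features named for their change in the iCRT14 foot were chosen on libraries that also enter the differences of differences. Other motifs were named as examples of the 21 lists after their values were seen. The comparison and the lists were chosen with earlier results of these data known.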

Additional observations from a re-analysis of the deposited data

Results flagged for a closer look

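Among 116 groups of 4 or 5 libraries checked over the named peaks, the named motifs and the ATAC-seq totals, 7 held 1 library far from the others, where chance flags about 5% of groups. They were ELF1 in 8 h iCRT14 foot replicate 3 (4.12, the others 3.43 to 3.5), peak 42955 in 8 h untreated foot replicate 1 (57.5 CPM, the others 13.1 to 21.0), peak 62449 in 0 h iCRT14 foot replicate 1 (0.0834 CPM, the others 0.209 to 0.213), and peak 80840 in 0 h iCRT14 foot replicate 4 (1.25 CPM, the others 0.0522 to 0.167). The others were peak 26899 in 8 h iCRT14 foot replicate 2 (0.587 CPM, the others 2.07 to 2.31), peak 87575 in 0 h iCRT14 head replicate 1 (34.3 CPM, the others 20.7 to 21.6) and peak 91059 in 8 h iCRT14 head replicate 5 (34.4 CPM, the others 16.2 to 21.4).

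The change from 0 h to 8 h differed between iCRT14 and untreated foot tips, by the test of the difference of differences, for 3786 gene models, 2429 peaks and 138 motifs. For named gene models the log2 difference of differences was 9.28 for g16973 (a fitted value that depends on the prior count, since no 0 h iCRT14 foot library had a count), 4.70 for g3893, -4.87 for g14018 and -4.11 for g24936. For named peaks it was 4.03 for 42955, 3.45 for 62902, 2.68 for 71731, 3.51 for 62449, 2.09 for 87574 and 1.15 for 87575. It was -2.42 for 83820, -2.01 for 87841, -1.56 for 86981, -1.71 for 84978, -5.21 for 80840 and -3.15 for 26899. For motif scores it was 6.20 for Fox:Ebox, 5.64 for Egr1, 5.48 for Max, 4.77 for both Egr2 and KLF14, 4.07 for ETS, 3.95 for Elk1 and 3.79 for ELF1. It was -5.17 for GSC, -4.27 for YY1, -3.55 for Phox2a, -3.30 for Gata2, -3.12 for Otx2, -3.11 for Gata1, -2.35 for Tcf3, -2.07 for Tcf4 and -1.22 for MYB.

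The change in iCRT14 differed between foot and head tips, by the same test, for 8 peaks and 4 motifs. The log2 difference of differences was 1.98 for peak 87574, 1.46 for 87575, -1.70 for 91059 and -1.52 for 49399. In motif score it was -3.06 for Phox2a, -3.01 for Smad2, -2.30 for MYB and -2.06 for HIF2a.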

How the results depend on the processing

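The named features of the 8 h against 0 h comparison kept their direction and their side of the threshold in every alternative fit run (203 fits of peaks, 247 of motifs and 52 of gene models), with TCFL2 not called in any of its 13 (adjusted p 0.113 to 0.777), and no result reversed. For iCRT14 against untreated foot, 6 fits of peaks lost a call (80840 and 42955) and 73 kept it, and 68 of 68 fits of motifs kept it. For foot against head, 47 fits of peaks lost a call and 37 kept it, and 24 fits of motifs lost it and 48 kept it; the cause was not tested.

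Called gene models at 8 h against 0 h numbered 5867 with all 42 RNA libraries, and 2266 to 5428 when 1 library was left out, with the extremes without 8 h replicate 1 and without 8 h replicate 3. For iCRT14 against untreated foot the range was 1564 to 5680 (1564 without the libraries numbered 1, 1568 without those numbered 2, 5680 without 8 h replicate 3), and for foot against head 0 to 32, with 2 calls for all 42 libraries and 1 for the groups compared alone. Peaks ranged from 11596 to 17102 at 8 h against 0 h. For iCRT14 against untreated foot they ranged from 956 to 2698, with 1376 without 8 h replicate 1 and 956, 1485, 1369 and 1381 without the libraries numbered 1, 2, 3 and 4. For foot against head they ranged from 1 to 5. In that last comparison the count was 27 with library size alone, 1 with DESeq2 size factors, 1 with no filter, 13 with 1 subtracted from every count, 1 with the 35 iCRT14 libraries, 3 with the groups compared alone and 2 with thinned counts. Motifs ranged from 190 to 211 at 8 h against 0 h, 114 to 138 for iCRT14 against untreated foot and 1 to 10 for foot against head, where the groups compared alone gave 0.

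Deviations from the group means were compared between 8 h and 0 h iCRT14 foot libraries of the same number. They correlated at -0.019 to 0.0239 for RNA-seq and at -0.261 to -0.127 for scores. In ATAC-seq the values were 0.172, -0.0616, 0.121 and 0.098 for replicates 1 to 4. Not every library correlated best with its own number, and the libraries were not treated as pairs. Whether libraries of 1 number share a batch was not tested. A replicate block, with only the groups compared, gave 2170 gene models, 16857 peaks and 190 motifs at 8 h against 0 h. It gave 2942, 4225 and 138 for iCRT14 against untreated foot, and 2, 14 and 0 for foot against head. The same groups without the block gave 2712, 13662 and 200 at 8 h against 0 h. They gave 3756, 3339 and 146 for iCRT14 against untreated foot, and 1, 3 and 0 for foot against head. Peak counts were thus higher with the block in each comparison.

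ATAC-seq depth limits closed peaks: at 8 h a peak near the lowest listed count of 1 cannot be told from one with no reads.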
